A study of Mus musculus with 12 samples.

Results

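The genes described here are 36 mouse genes of glycolysis and of the response to low oxygen: glycolytic enzymes, transporters of glucose and lactate, and targets of the hypoxia-inducible factor HIF-1. They were taken by symbol from a list of members with no threshold on a measured value, and the list was drawn up with earlier results of these data known. Among 18194 genes with a probe set that names that gene alone, 33 of the 36 were found, and 31 of these were among the 12071 genes that reached a mean signal of 50 in at least 1 condition and were tested. Eno2 (signal 10.6 to 13.3 over the arrays) and P4ha2 (19.1 to 40.0) were measured but stayed under that minimum. For Gpi1 and Eno1 no probe set was named, and the probe sets for Bnip3l also named a second gene, so these 3 members have no value here. The study measured the transcriptome of BV-2 microglia, an immortalized mouse microglial line, on Affymetrix arrays. The cells were left untreated (control), or kept for 24 h with 50 µM luteolin, a plant flavonoid, with 50 ng/ml lipopolysaccharide (LPS), a bacterial cell wall component that activates microglia, or with luteolin + LPS at the same concentrations. Each of the 4 conditions had 3 arrays, numbered replicate 1 to 3, from stimulations that the study describes as independent. All 12 arrays come from 1 established cell line, so no spread between animals is contained in the data.

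Glycolysis turns glucose into pyruvate. Glucose enters through transporters such as Slc2a1, is phosphorylated by hexokinases, and pyruvate is either sent to the mitochondria, where the kinase Pdk1 limits its use, or turned into lactate by Ldha and exported by Slc16a1 and Slc16a3. When oxygen is low, the HIF prolyl hydroxylases encoded by Egln1 and Egln3 slow down, HIF-1alpha (Hif1a) is stabilized, and it raises many glycolytic genes together with targets such as Bnip3, Ankrd37, P4ha1 and Ndrg1. Macrophages and microglia that meet LPS are known for a shift towards glycolysis, and LPS is known to raise Hif1a transcription through NFkB. The comparisons below ask whether LPS, luteolin, or luteolin on top of LPS moved the transcripts of this pathway.

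HIF binds DNA at a short core motif, ACGTG or GCGTG, and this motif was searched on both strands in the 250 bases before each annotated start in mouse RefSeq (GRCm38.p6). The windows of 5 members are printed because they carry the results: Slc16a3 and P4ha1 moved in opposite directions when luteolin was added to LPS, and Egln3, Ankrd37 and Bnip3 were among the members with the largest differences between replicate numbers. Each is written 5′ to 3′ on the strand of its gene and ends at the base before the start. Capitals mark the core motif, which reads CACGT or CACGC where it lies on the other strand, and overlapping matches, as in the palindrome CACGTG that is also the core of an E-box, run together as 1 stretch.
Bnip3, chr7:138909507-138909756, minus strand: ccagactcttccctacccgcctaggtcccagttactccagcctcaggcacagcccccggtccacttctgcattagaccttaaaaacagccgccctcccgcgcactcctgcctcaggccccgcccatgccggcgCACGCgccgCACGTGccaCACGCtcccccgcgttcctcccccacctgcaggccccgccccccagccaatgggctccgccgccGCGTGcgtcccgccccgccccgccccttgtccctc
Ankrd37, chr8:45999851-46000100, minus strand: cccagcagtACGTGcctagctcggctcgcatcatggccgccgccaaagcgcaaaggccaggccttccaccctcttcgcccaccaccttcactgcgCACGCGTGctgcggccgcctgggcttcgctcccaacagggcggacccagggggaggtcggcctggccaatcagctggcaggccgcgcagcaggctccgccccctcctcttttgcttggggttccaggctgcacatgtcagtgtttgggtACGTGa
P4ha1, chr10:59323046-59323295, plus strand: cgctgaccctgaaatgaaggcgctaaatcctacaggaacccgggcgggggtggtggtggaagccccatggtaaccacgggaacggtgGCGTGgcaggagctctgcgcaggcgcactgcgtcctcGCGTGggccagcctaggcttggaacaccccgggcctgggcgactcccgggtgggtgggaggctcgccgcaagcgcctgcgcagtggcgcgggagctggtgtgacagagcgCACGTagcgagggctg
Slc16a3, chr11:120948817-120949066, plus strand: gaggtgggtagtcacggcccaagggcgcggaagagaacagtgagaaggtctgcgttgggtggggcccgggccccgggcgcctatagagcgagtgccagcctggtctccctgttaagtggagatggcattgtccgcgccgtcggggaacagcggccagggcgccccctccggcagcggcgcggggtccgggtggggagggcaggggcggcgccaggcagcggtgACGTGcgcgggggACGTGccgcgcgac
Egln3, chr12:54203875-54204124, minus strand: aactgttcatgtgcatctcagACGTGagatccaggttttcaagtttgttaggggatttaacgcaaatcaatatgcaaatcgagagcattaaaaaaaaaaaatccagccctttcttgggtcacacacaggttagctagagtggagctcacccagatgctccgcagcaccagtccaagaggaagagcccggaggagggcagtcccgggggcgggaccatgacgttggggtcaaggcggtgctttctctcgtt
The window of Bnip3 held 4 stretches, those of Ankrd37 and P4ha1 held 3 each, that of Slc16a3 held 2 close to its start, and that of Egln3 held 1. Of 34 members with a window, 31 (91.2%) held the motif in at least 1 window. Among all 27025 genes with a window the share was 41.5%, and among the 9788 tested genes with a window it was 60.1%. A gene with several annotated starts has several windows, and counted by window the share was 78.4% for the members and 54.4% for the tested genes. At least 3 stretches were found for 8 members (23.5%), against 5.27% of all genes with a window and 10.2% of tested genes. The 34 members include untested ones, such as P4ha2 and Eno1, and the list was drawn up to hold targets of HIF-1. The stretches are matches of letters and were not tested as sites.

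Median array signals lay between 52.2 and 56.4, and the arrays of a condition correlated with each other at 0.978 or more (Pearson's r, all probe sets). Of 10 microglial markers, 8 reached a signal of 50 on all 12 arrays, while the highest signal was 54.9 among fibroblast markers, 84.3 among astrocyte markers, 103 among oligodendrocyte markers (Mbp) and 234 among neuron markers (Rbfox3). The neuron markers Rbfox3 and Syp, the astrocyte markers Gfap and Slc1a3 and the oligodendrocyte markers Mbp and Mag also reached 50 on all 12 arrays. No fibroblast marker did. The remaining microglial markers, Cx3cr1 and Aif1, reached 50 on 6 and 11 arrays. The markers that reached 50 on no array were 3 of 6 for neurons and 2 of 5 for astrocytes. They were 1 of 4 for oligodendrocytes, 4 of 5 for fibroblasts and 0 of 10 for microglia. Il6, the cytokine by which the LPS response was checked, had a geometric mean signal of 20.9 in control, 9.42 with luteolin, 3037 with LPS and 1643 with luteolin + LPS. Luteolin + LPS replicate 2 stood apart from the other arrays of its condition in Il6 and Acod1. Il6 was at 657 against 2135 and 3163, and Acod1 at 3136 against 12910 and 10020. The mean correlation of that array with its condition was 0.987. LPS replicate 1 had the lowest such correlation of the 12 arrays (0.980), and an Il6 signal of 5018 against 1836 and 3041 on the other LPS arrays. Arrays with the same replicate number deviated together, and each comparison was therefore fitted both without and with the replicate number as a block. Values below are signals on the linear scale, differences are log2 fold changes with limma's standard error, and adjusted p-values are those of limma over all 12071 genes unless another test is named.

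With LPS, 16 of the 31 tested members differed from control cells by less than 0.2 on the log2 scale, a share near that of all genes (49.7%). Over the 31 tested members the log2 fold changes ran from -1.06 to 0.92 with a median of 0.04, against a median of -0.04 over all genes, and 18 of 31 lay above 0 (45.1% of all genes did). Without the block limma called 0 members, at a background of 4.18% of all genes (1.96% higher and 2.22% lower). With the block it called 5, of which Slc2a1 and Hif1a rose and Pfkm, Egln1 and Pdk1 fell, against 11.1% of all genes in either direction, 4.3% higher and 6.78% lower. At an unadjusted p under 0.05, 3 members differed (Hif1a higher, Pdk1 and Kdm3a lower), at a background of 20.5%, or 8% higher and 12.5% lower. The LPS and control arrays did not overlap for 3 members that were higher (Pgk1, Hif1a and Higd1a, background 11.5%) and 3 that were lower (Pdk1, Pfkfb4 and Kdm3a, background 16.1%).

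Luteolin alone gave no member past the test in the fits without and with the block. The log2 fold changes ran from -0.88 to 0.24 with a median of -0.11, and 9 of 31 members lay above 0 (47.1% of all genes). Limma called 0 members without the block and 0 with it, at backgrounds of 0% and 0.282% of all genes (with the block 0.0828% higher and 0.199% lower). With array weights it called 2, P4ha1 and Kdm3a, both lower. At an unadjusted p under 0.05 there were 2, P4ha1 and Kdm3a, both lower, at a background of 9.09% (3.18% higher and 5.91% lower). No member was higher on all 3 luteolin arrays than on all control arrays (background 8.29%), and Aldoc and Kdm3a were lower on all of them (background 11.3%).

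Luteolin added to LPS raised the lactate exporter Slc16a3 and the HIF hydroxylase Egln1 and lowered the collagen prolyl hydroxylase P4ha1 relative to LPS alone, in the fit with the block. Without the block limma called 0 of 31 members, at a background of 0.505% (0.149% higher and 0.356% lower). With it these 3 were called, at a background of 4.79% (1.95% higher and 2.84% lower). At an unadjusted p under 0.05 only P4ha1 differed without the block (background 14.9%, of which 6.89% higher and 7.98% lower). The median log2 fold change was -0.04 over the members and 0.02 over all genes, and 12 of 31 members lay above 0 (52.9% of all genes). Pkm was the only member higher on all luteolin + LPS arrays than on all LPS arrays (background 8.04%), and P4ha1 and Kdm3a were lower on all of them (background 8.04%). The effect of luteolin differed between LPS-treated and untreated cells for 0 members by limma's interaction test, without and with the block (background 0% in both), and for 0 at an unadjusted p under 0.05 (background 3.15%, of which 1.56% higher and 1.59% lower). The interaction term lay above 0 for 18 of 31 members (56% of all genes). The luteolin + LPS and the LPS comparisons share the LPS arrays, so their values are given side by side below and were not set against each other.

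**Figure D1:**
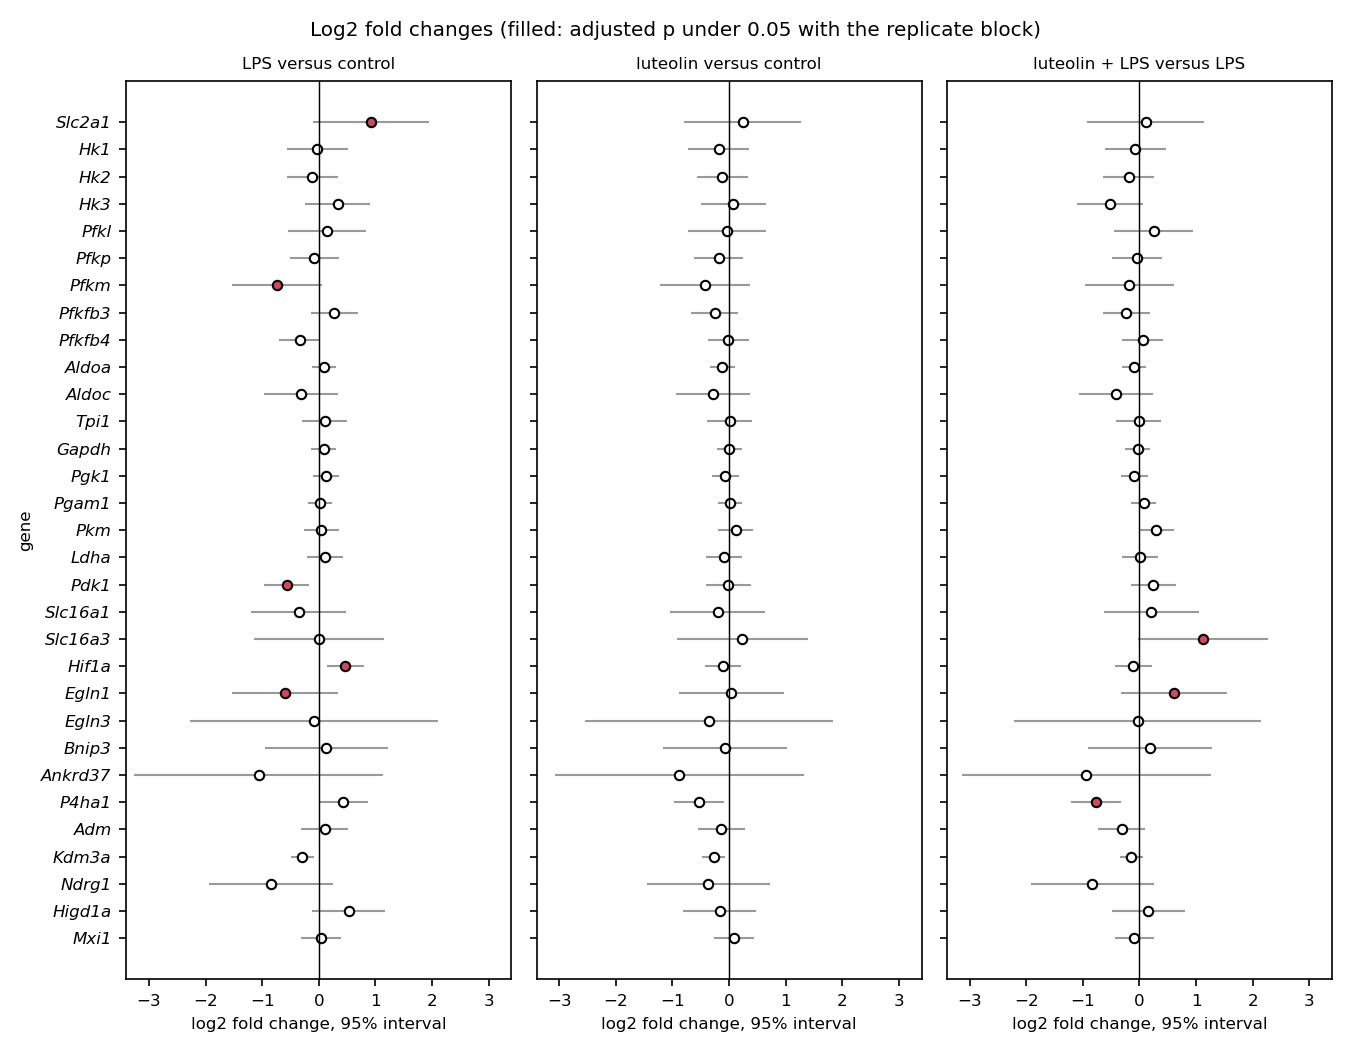
Log2 fold change of each of the 31 tested members in the 3 comparisons (horizontal axis, log2 scale, points with 95% intervals from the fit without the block), with filled points where the adjusted p was under 0.05 with the replicate block. Most points lie near 0, and the intervals of Egln3 and Ankrd37 are the widest.

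Among the 4 members of glucose uptake and phosphorylation, the glucose transporter Slc2a1 was the only one that passed a test of treatment. Its signal was 1224, 3953 and 3025 in control replicates 1 to 3, 1766, 4846 and 2821 with luteolin, 3734, 5934 and 4511 with LPS, and 3265, 6759 and 5699 with luteolin + LPS. Control replicate 1 was the lowest of the 12 arrays, and the LPS and control arrays overlapped because LPS replicate 1 lay under control replicate 2. In each replicate number the LPS array was above its control, by a log2 of 1.61, 0.59 and 0.58. Slc2a1 therefore rose with LPS only in the blocked fit (log2 fold change 0.92, standard error 0.47 without the block and 0.19 with it, adjusted p = 0.296 without and 0.0183 with it), and without control replicate 1 the blocked adjusted p was 0.0595. The other 2 probe sets of Slc2a1 gave log2 fold changes of 1.05 and 0.97. Adding luteolin to LPS changed it by 0.11 (95% interval -0.92 to 1.14). The hexokinases, which trap glucose in the cell, did not pass a test of treatment. Hk1 ranged from 722 to 1591 over the 12 arrays and Hk2 from 1604 to 2746. The largest difference among the 3 was that of Hk3, the myeloid hexokinase, with -0.52 for luteolin + LPS versus LPS (standard error 0.26, adjusted p = 0.394).

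In upper glycolysis, from fructose phosphate to the triose phosphates, 7 of the 8 tested members passed no test of treatment, and the muscle-type phosphofructokinase Pfkm was lower with LPS in the blocked fit. Its signal was 2019, 1151 and 961 in control replicates 1 to 3, 1214, 898 and 841 with luteolin, 1237, 718 and 547 with LPS, and 998, 674 and 502 with luteolin + LPS. Within every condition replicate 1 was the highest and replicate 3 the lowest, and the conditions overlapped. Within each replicate number the LPS array was below the control, by a log2 of -0.71, -0.68 and -0.81. The log2 fold change was -0.73 (standard error 0.36 without the block and 0.13 with it, adjusted p = 0.278 and 0.00852), and the blocked call was kept whichever of the 12 arrays was left out. The liver and platelet forms of the same enzyme, Pfkl and Pfkp, differed by 0.14 and -0.08 with LPS. Pfkfb3 and Pfkfb4 make the activator fructose 2,6-bisphosphate, and differed by 0.27 and -0.33 with LPS, with adjusted p-values of 0.448 and 0.284. The aldolases Aldoa and Aldoc and the isomerase Tpi1 differed by 0.09, -0.32 and 0.11 with LPS. A second probe set of Aldoc, with a mean signal of 150 in control and 61.8 with LPS, gave -1.28. For luteolin + LPS versus LPS the 2 probe sets of Aldoc differed in sign, with -0.42 for the one used and 0.67 for the second. Aldoc ranged from 1071 on luteolin + LPS replicate 2 to 3262 on LPS replicate 1.

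The 4 tested genes of lower glycolysis moved little, with log2 fold changes of 0.02 to 0.13 with LPS, -0.07 to 0.12 with luteolin and -0.09 to 0.29 for luteolin + LPS versus LPS, and none passed a test. Their signals lay between 8696 (Pkm) and 22810 (Gapdh), while array medians were 52.2 to 56.4. Aldoa, Tpi1 and Ldha were at 8399 or more on all arrays. Whether differences are narrowed at such high signals was not tested, so small values here do not show that these transcripts stayed unchanged. Gapdh, the enzyme that oxidizes glyceraldehyde phosphate and a common reference gene, had signals of 19327, 21983 and 22062 in control replicates 1 to 3, 19615, 22376 and 21523 with luteolin, 22721, 22491 and 22010 with LPS, and 21208, 21715 and 22810 with luteolin + LPS. The 2 lowest values were the control and luteolin arrays of replicate 1, and all groups overlapped. Its log2 fold change with LPS was 0.09 (95% interval -0.13 to 0.31, adjusted p = 0.654). It was read from the array's own control probe sets. Pgk1, which makes ATP from bisphosphoglycerate, Pgam1, the mutase, and Pkm, the pyruvate kinase, had log2 fold changes of 0.13, 0.02 and 0.05 with LPS. Pkm, whose arrays were all higher with luteolin + LPS than with LPS, ranged from 11902 to 12749 against 9008 to 11181 (log2 fold change 0.29, standard error 0.14, adjusted p = 0.362).

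**Figure D2:**
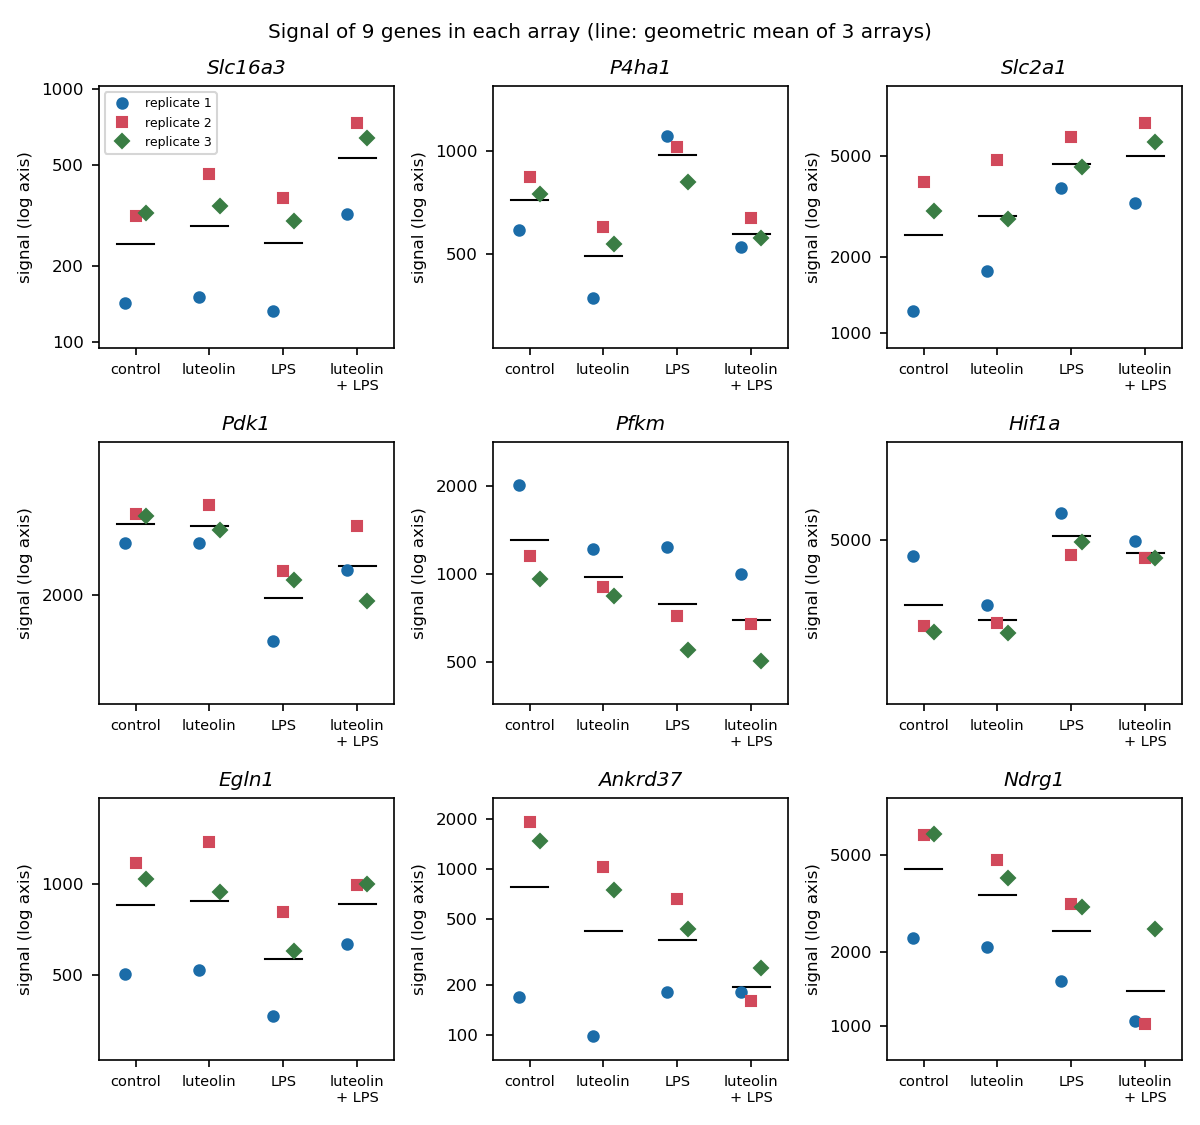
Signal of 9 members on each of the 12 arrays (vertical axes, log scale, each with its own range), with a symbol for each replicate number and a line at the geometric mean of the 3 arrays of a condition. For Slc16a3, Slc2a1 and Egln1 replicate 1 is the lowest array of every condition, and for Pfkm it is the highest.

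The fate of pyruvate separated its 4 genes. Ldha, which reduces pyruvate to lactate, ranged from 9162 to 13955 and differed by 0.11 with LPS and by 0.00 when luteolin was added to LPS (95% interval -0.32 to 0.32). Pdk1, the kinase that switches off pyruvate dehydrogenase, had signals of 2642, 3085 and 3048 in control replicates 1 to 3, 2645, 3241 and 2832 with luteolin, 1558, 2267 and 2162 with LPS, and 2282, 2898 and 1929 with luteolin + LPS. All 3 LPS arrays lay under all 3 control arrays. Pdk1 fell with LPS in the blocked fit (log2 fold change -0.57, standard error 0.18 without the block and 0.14 with it, adjusted p = 0.108 and 0.0312). That call was kept in 5 of 12 blocked fits that left out 1 array, with adjusted p-values of 0.0156 to 0.135. It was also called with a random block (adjusted p = 0.0353) and with array weights (0.0163). The 2 other probe sets of Pdk1 with a signal over 50 gave -0.67 and -0.87.

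Slc16a3 encodes MCT4, the lactate exporter of cells with high glycolytic flux. Its signal was 143, 315 and 325 in control replicates 1 to 3, 150, 462 and 344 with luteolin, 132, 371 and 301 with LPS, and 321, 735 and 641 with luteolin + LPS. The luteolin + LPS array was the highest of each replicate number, about as far above its LPS array in all 3 (log2 differences of 1.28, 0.99 and 1.09), while luteolin + LPS replicate 1 still lay within the range of the LPS arrays. The log2 fold change over LPS was 1.12, or 2.17-fold (standard error 0.52 without the block and 0.12 with it, adjusted p = 0.353 and 0.00414), and the blocked call was kept whichever of the 12 arrays was left out. LPS alone differed from control by 0.00 (95% interval -1.15 to 1.16 without the block, standard error 0.12 with it). Luteolin alone differed from control by 0.24 (adjusted p = 0.957, or 0.391 with the block). The interaction of luteolin with LPS was 0.88 (standard error 0.74, adjusted p = 0.999, or 0.261 with the block), so the effect of luteolin was not shown to differ between resting and LPS-treated cells. Only 1 probe set names Slc16a3. Slc16a1, which encodes the transporter MCT1, differed by -0.36 with LPS and by 0.21 with luteolin + LPS versus LPS, and passed no test of treatment.

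Hif1a was measured at 4642, 3333 and 3232 in control replicates 1 to 3, at 3683, 3372 and 3215 with luteolin, at 5699, 4664 and 4969 with LPS, and at 4976, 4599 and 4586 with luteolin + LPS. The 3 LPS arrays lay above the 3 control arrays, the lowest of them only just above control replicate 1. Hif1a rose with LPS in the blocked fit (log2 fold change 0.47, or 1.38-fold, standard error 0.15 without the block and 0.11 with it, adjusted p = 0.104 and 0.025). It was also called with a random block (adjusted p = 0.0304), with array weights (0.00301), with the mean of its probe sets (0.0349) and, without a block, when control replicate 1 was left out (0.0309), and it was kept in 7 of 12 blocked fits that left out 1 array. The other 2 probe sets over 50 gave 0.35 and 0.88. Adding luteolin to LPS changed it by -0.11 (95% interval -0.43 to 0.21).

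Egln1 encodes PHD2, the main oxygen sensor for HIF-1alpha. Its signal was 506, 1177 and 1040 in control replicates 1 to 3, 519, 1377 and 945 with luteolin, 367, 812 and 603 with LPS, and 633, 997 and 1001 with luteolin + LPS. Replicate 1 was the lowest array in every condition, and the conditions overlapped. In the blocked fit Egln1 fell with LPS (log2 fold change -0.60, standard error 0.42 without the block and 0.14 with it, adjusted p = 0.457 and 0.0296) and rose with luteolin + LPS over LPS (0.60, adjusted p = 0.564 and 0.0459). The first call was lost whichever control or LPS array was left out, at adjusted p-values up to 0.133, and the second was kept in 1 of 12 such fits, that without luteolin + LPS replicate 2 (adjusted p = 0.04). The second probe set of Egln1 gave -0.91 and 1.11 for the same comparisons. Both comparisons rest on the same LPS arrays. Egln3, the hydroxylase PHD3 and itself a HIF target, passed no test of treatment.

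Among the 8 tested HIF targets outside glycolysis, P4ha1 was the one that passed a test of treatment in the blocked fit of all 12 arrays. P4ha1 encodes a subunit of the prolyl hydroxylase that matures collagen. Its signal was 587, 842 and 751 in control replicates 1 to 3, 374, 601 and 538 with luteolin, 1103, 1025 and 815 with LPS, and 526, 640 and 558 with luteolin + LPS. All luteolin + LPS arrays lay under all LPS arrays, with log2 differences of -1.07, -0.68 and -0.55. The log2 fold change was -0.77, or 0.588-fold (standard error 0.20 without the block and 0.17 with it, adjusted p = 0.112 and 0.0398). It was also called with a random block (adjusted p = 0.0362), but was kept in only 3 of 12 blocked fits that left out 1 array, its highest adjusted p, 0.112, being that without luteolin + LPS replicate 2. The second probe set gave -0.82. The log2 fold change of P4ha1 with luteolin alone was -0.54 (standard error 0.20, adjusted p = 0.43, or 0.181 with the block), and with array weights this passed (adjusted p = 0.0344).

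Ankrd37, an ankyrin repeat protein and HIF target, had the largest log2 fold changes of the members with LPS and with luteolin, and passed in neither. Its signal was 168, 1916 and 1478 in control replicates 1 to 3, 98.7, 1027 and 750 with luteolin, 182, 657 and 435.1 with LPS, and 181, 161 and 254 with luteolin + LPS. The spread of the control arrays alone was wider than the difference between any conditions, since replicate 1 lay far under the others in the control, luteolin and LPS groups. The log2 fold changes were -1.06 with LPS (standard error 0.999, adjusted p = 0.586, or 0.272 with the block), -0.88 with luteolin (adjusted p = 0.874, or 0.541 with the block) and -0.94 for luteolin + LPS versus LPS (adjusted p = 0.728, or 0.394 with the block).

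Ndrg1, a growth arrest and stress response gene, was at 2301, 6096 and 6150 in control replicates 1 to 3, at 2098, 4782 and 4030 with luteolin, at 1533, 3158 and 3065 with LPS, and at 1044, 1012 and 2498 with luteolin + LPS. Within each replicate number the order was control, luteolin, LPS and luteolin + LPS from high to low, while arrays of different numbers overlapped. The log2 fold change with LPS was -0.85 (standard error 0.50 without the block and 0.27 with it, adjusted p = 0.363 and 0.0789), and -0.83 for luteolin + LPS versus LPS (adjusted p = 0.484 and 0.116). Without luteolin + LPS replicate 2 the blocked adjusted p of the LPS comparison was 0.003. All 4 other probe sets of Ndrg1 were lower in the same 3 comparisons.

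Kdm3a, a histone demethylase and HIF target, is given because its arrays were the tightest, and was chosen after its values had been seen. It was at 1161, 1132 and 1152 in control replicates 1 to 3, at 965, 987 and 906 with luteolin, at 939, 948 and 935 with LPS, and at 835, 909 and 809 with luteolin + LPS. Every treated array lay under every control array. The log2 fold change was -0.29 with LPS (standard error 0.09, adjusted p = 0.107, or 0.0624 with the block) and -0.27 with luteolin (adjusted p = 0.407, or 0.19 with the block). Kdm3a was called lower with LPS under a random block (adjusted p = 0.0457) and with array weights (0.021), and lower with luteolin under array weights (0.0253). The 4 remaining HIF targets passed no test of treatment: Bnip3, a mitophagy receptor, and Mxi1, an antagonist of Myc, differed by less than 0.2 in all 3 comparisons. Adm, the peptide adrenomedullin, stayed between 45.6 and 77.8 and differed by at most 0.32 in size. Higd1a, a mitochondrial survival protein, was at 3281 to 4071 on the LPS arrays and 2151 to 2888 on the control arrays (log2 fold change 0.53, standard error 0.29, adjusted p = 0.335). Fewer cells that express a gene and less of its RNA per cell cannot be told apart in these bulk measurements.

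For 18 of 31 members (58.1%, against 35% of all genes) more of the spread over the arrays lay with the replicate number than with the condition. The replicate number was tested after the values had been seen, with a limma F test of the replicate number beside the condition. Of the 31 members 10 differed between replicate numbers at an adjusted p under 0.05, at a background of 15.2% of all genes. Of these, 8 were higher in both replicates 2 and 3 than in replicate 1 (backgrounds 9.12% and 8.33%): the transporters Slc2a1, Slc16a1 and Slc16a3, the hydroxylases Egln1 and Egln3, and the HIF targets Bnip3, Ankrd37 and Ndrg1. Hk3 and Pfkm were lower in both (backgrounds 6.47% and 9.26%). Each of these backgrounds is for a single comparison, and the share of all genes that differ in both was not taken. Over the members a median of 42.0% of the sum of squares of log2 signal lay with replicate number and 29.1% with condition, against 21.8% and 39.4% over all genes. Which property of the stimulations the replicate number stands for is not given by the labels.

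**Figure D3:**
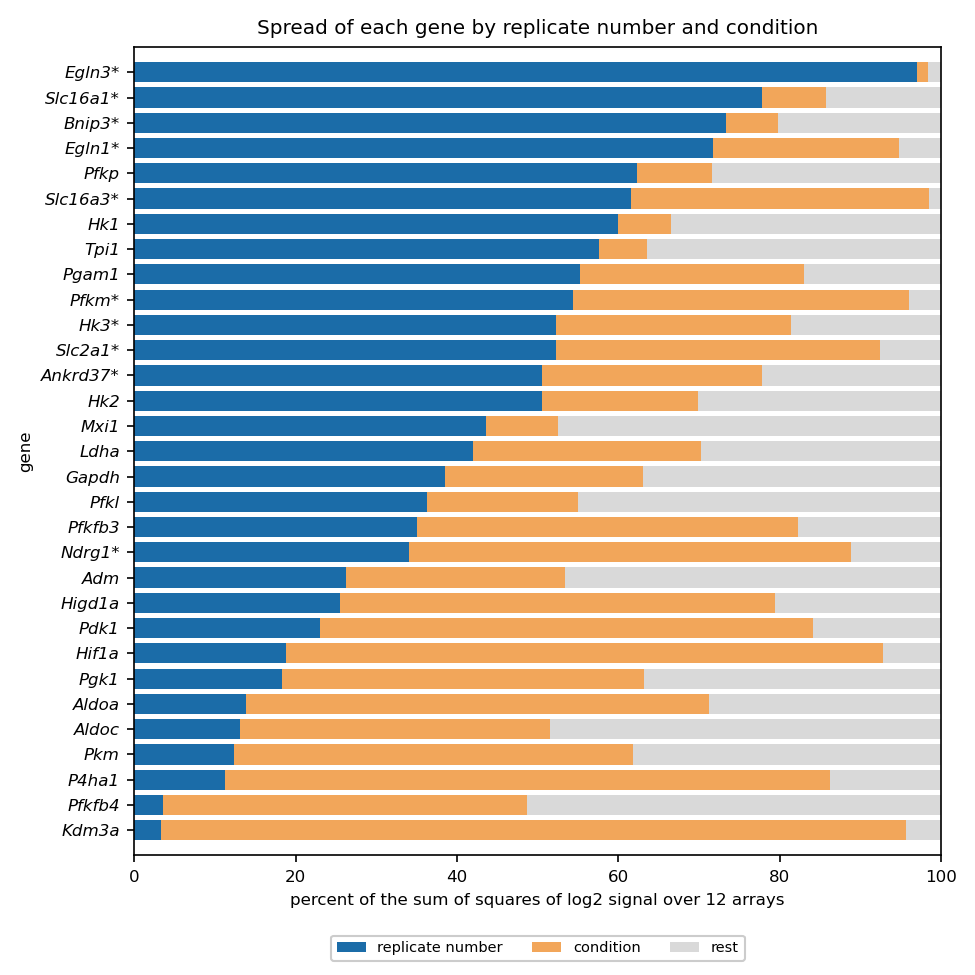
Percent of the sum of squares of log2 signal over the 12 arrays (horizontal axis) that lay with replicate number, with condition and with neither, for each tested member; an asterisk marks an adjusted p under 0.05 in the F test of replicate number. Egln3 is at the top with 97.0% by replicate number, and Kdm3a at the bottom with 92.4% by condition.

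Egln3, Bnip3, Slc16a1 and Hk3 are described for this spread and were chosen after their values had been seen. Egln3 had signals of 93.6, 500 and 164 in control replicates 1 to 3, 71.6, 443 and 115 with luteolin, 67.6, 667 and 142 with LPS, and 88.6, 514 and 131 with luteolin + LPS. In every condition replicate 2 was far above the others and replicate 1 was the lowest. The log2 difference between replicates 2 and 1 was 2.72 (standard error 0.14, adjusted p of the F test 1.19e-04), and Egln3 was the only member that also differed between replicates 3 and 2 (-1.94, adjusted p = 0.0012, backgrounds 0.0497% lower and 0.00828% higher). Of its sum of squares 97.0% lay with replicate number and 1.30% with condition.

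Bnip3 was at 2164, 7139 and 6135 in control replicates 1 to 3, at 2140, 7066 and 5360 with luteolin, at 4195, 6404 and 4672 with LPS, and at 4413, 7629 and 5481 with luteolin + LPS. All 4 arrays of replicate 1 lay under all others, and those with LPS lay nearer to the others. Bnip3 was higher in replicate 2 than in replicate 1 by a log2 of 1.21 (standard error 0.22) and in replicate 3 by 0.82. The corresponding differences were 0.84 and 0.85 for Slc16a1, 1.36 and 1.14 for Slc16a3, 2.14 and 1.95 for Ankrd37, and 1.11 and 0.82 for Egln1. Pfkm ran the other way, with -0.65 and -0.94. All arrays of replicate 1 lay under the others for 3 members (Slc16a1, Egln3 and Bnip3, background 4.39%) and above the others for Hk3 (background 3.21%).

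The F test called Slc2a1, Pfkm, Slc16a1, Slc16a3, Egln1 and Egln3 whichever of the 12 arrays was left out, and Bnip3 in 11 of 12 such fits. Hk3 was called in 3 of 12, Ankrd37 in 2 of 12 and Ndrg1 in 8 of 12. The summed signal of 10 microglial markers was 51300 to 55340 on the arrays of replicate 1, 39870 to 48300 on those of replicate 2 and 43970 to 50760 on those of replicate 3, so that all sums of replicate 1 lay above the rest, and its part in the difference was not tested. The log2 ratio of the 3′ to the 5′ control probe set was -0.16 to -0.10 for Gapdh over all arrays, and for Actb it was 0.45 on control replicate 1 and 0.13 to 0.32 on the others. Of these 10 members 9 had a promoter window, and all 9 held the HIF core motif, as did 20 of the 21 other tested members with a window.

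**Figure D4:**
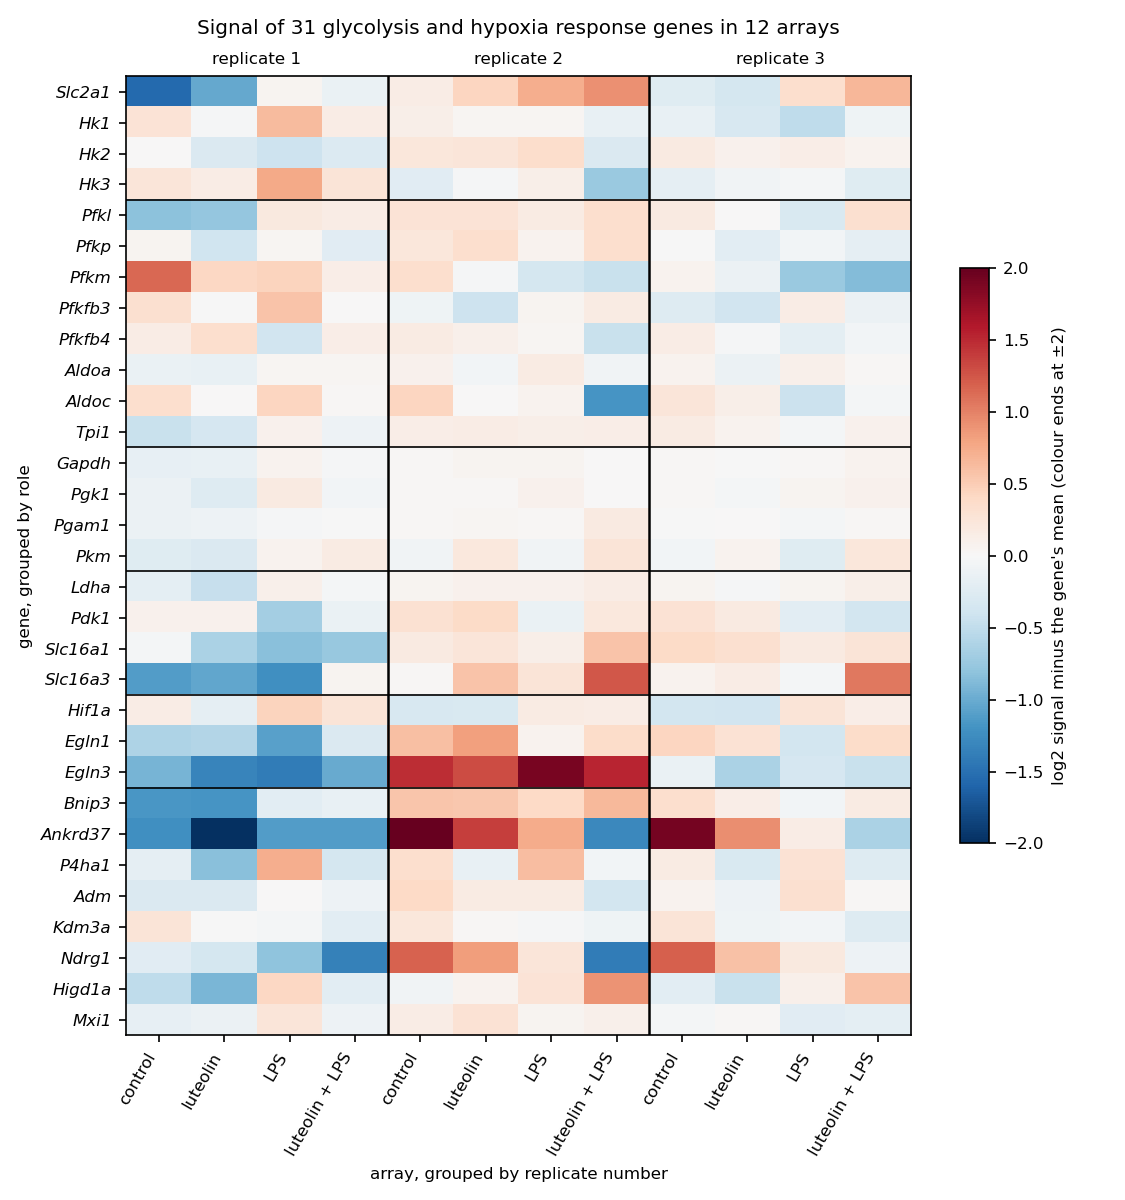
Log2 signal minus the mean of the gene over 12 arrays (colour, ending at -2 and 2) for the 31 tested members, grouped by role, with the 12 arrays grouped by replicate number. Egln1, Egln3 and Bnip3 are blue, below their mean, on all arrays of replicate 1. Slc2a1 is below its mean on all of them but that of LPS, and Slc16a3 on all but that of luteolin + LPS.

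The neighbouring genes of these pathways were read from 4 further lists: 26 tested genes of the HIF pathway and hypoxia, 20 of glucose and pyruvate handling, 7 of the pentose phosphate pathway and 19 of the tricarboxylic acid cycle. With LPS 5 of them fell without the block, 1 or 2 in each list, and none rose (backgrounds 2.22% lower and 1.96% higher). They were the HIF-regulated repressor Zfp395 (log2 fold change -0.67, adjusted p = 0.0454), Eno3, the muscle enolase (-1.18, adjusted p = 0.00738), Pdha1, the catalytic subunit of pyruvate dehydrogenase (-0.52, adjusted p = 0.0209), Rpia of the pentose phosphate pathway (-0.74, adjusted p = 0.0212) and Idh3g, a subunit of isocitrate dehydrogenase (-0.47, adjusted p = 0.0471). Eno3 was at 1195 to 1347 on the control arrays and 552 to 605 on the LPS arrays. Of the tricarboxylic acid cycle genes 4 of 19 lay above 0 with LPS (45.1% of all genes did), with a median of -0.28, and 4 fell in the blocked fit (background 6.78%), the largest being Mdh1 (-0.59, adjusted p = 0.0437), Idh2 (-0.54, 0.025) and Suclg2 (-0.49, 0.0254).

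In the blocked fit, where 4.3% of all genes rose and 6.78% fell, 2 of 26 HIF pathway genes rose with LPS, Ero1a, an oxidase of the endoplasmic reticulum (0.91, adjusted p = 0.00699), and Vegfa, the vascular growth factor (0.64, adjusted p = 0.0437), and 3 fell, among them Plod1 (-0.75, adjusted p = 0.0202). Of glucose and pyruvate handling 1 of 20 rose and 3 fell, the first a share near the background. The gene that rose was the glucose transporter Slc2a6, by 1.42 (adjusted p = 0.0272, or 0.0691 without the block). Its signal was 547 to 916 in control and 1996 to 2101 with LPS. With luteolin alone none of these genes passed in either fit. With luteolin + LPS versus LPS none passed without the block, and with it (background 1.95% higher) Vhl, which targets HIF-1alpha for degradation, rose by 0.66 (adjusted p = 0.0241), the third HIF hydroxylase gene Egln2 by 0.53 (0.0208), the adenylate kinase Ak4 by 0.51 (0.0352) and the pentose phosphate enzyme Pgd by 0.74 (0.0404). Egln2 was lower with LPS than in control by 0.52 in the same fit (adjusted p = 0.00848). Its signal was 529 to 679 in control, 365 to 492 with LPS and 564 to 666 with luteolin + LPS. The 2 comparisons share the LPS arrays and were not set against each other. Between replicate numbers 7 of the 26 HIF pathway genes differed, against a background of 15.2%: Ero1a, Fam162a, Plod1, Plod2, Jmjd6 and Ak4 were higher in replicates 2 and 3 than in replicate 1, and Car9 was lower.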

How the data were processed

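RNA of 12 BV-2 cultures was hybridised to Affymetrix mouse genome arrays. Although PUER cells are named under extraction in the labels, all arrays are treated as BV-2 here, following the treatment protocol and the study's methods. The authors summarized the probes with the RMA algorithm, per the labels' processing notes, and deposited 1 linear intensity for each of 45101 probe sets and array. RMA corrects the background, sets all arrays to 1 distribution and summarizes by median polish, and a shift common to most transcripts is lost in it.

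Log2 values were taken here. Of the probe sets, 34958 named 1 gene, 932 several and 9211 none here. For 9012 genes with more than 1 probe set, that with the highest mean was kept. The test took in the 12071 genes whose geometric mean reached a signal of 50 in any condition, and 6123 were left out. Linear models with a mean for each condition were fitted over the 12 arrays in R 4.3.3 by limma 3.58.1 with moderated variances, Benjamini-Hochberg adjustment over all genes tested and a threshold of 0.05. Arrays of the same replicate number deviated together from their condition means in all 18 pairs of arrays (r of 0.101 to 0.591, median 0.421). Between different numbers r ran from -0.563 to 0.483 with a median of -0.295, and 8 of 36 pairs were over 0.1. The numbers were read as 3 stimulation experiments and added as a block in a second fit. The tests were tested on simulated data.

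The members and gene lists were chosen with earlier results of these data known. Values on every array are given for members that passed in either fit, the 3 largest log2 fold changes per comparison, Hif1a and Gapdh. Kdm3a, Egln3 and Bnip3 were added after their values had been seen. Some genes of the further lists that passed are named, by log2 fold change and in part by range. The F test of replicate number and the blocked fits that leave out 1 array were chosen after the data had been seen. Promoter windows were those of mouse RefSeq, where Bnip3l and Ndrg1 had no entry. Plots used matplotlib 3.10.9 under Python 3.11.15. Array number and signal over background limit the precision.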

Additional observations from a re-analysis of the deposited data

How the results depend on the processing

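Without a block 0 members were called in each of the 4 comparisons, and the replicate block changed this for 2 of them. For LPS versus control the count was 5 with the replicate block, 3 with the replicate number as a random block, 4 with array weights, 1 (Hif1a) with probe sets averaged by gene, and 0 to 1 when 1 array was left out, the 1 being Hif1a without control replicate 1. With the block and 1 array left out it was 2 to 6. For luteolin + LPS versus LPS it was 3 with the block, 1 with the random block, 0 whichever array was left out, and 1 to 2 with the block and 1 array left out. For luteolin versus control it was 2 with array weights and 0 otherwise. Of the blocked calls, those of Pfkm and Slc16a3 were kept whichever of the 12 arrays was left out, and that of Slc2a1 in 11 of 12. The number of members that differed between replicate numbers was 10, 13 with probe sets averaged by gene, 15 with array weights (whose estimate had not fully converged), 7 to 12 when 1 array was left out, and 10 with the other settings tried. The cause of these differences was not tested. No filter on low values, a stricter minimum of 100, a floor of 50, centring of the arrays on their median, an intensity trend and a fit of only the groups compared left every count of treatment calls at 0. No setting turned the sign of a called difference among the 10 members that passed in either fit, had the largest log2 fold changes or were given in any case (Hif1a and Gapdh). Kdm3a, Egln3 and Bnip3, also given by array, were not part of that check.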
